A study of Mus musculus with 76 samples.

Results

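Exposure to a mixed radiation field was compared with sham treatment in the right ventricle of female C57Bl/6J mice, and the 19 libraries of this comparison were chosen by their labels from the 76 libraries of the series. The mixed field group (Mix, 50 cGy) held the 10 libraries F1 to F5 and F21 to F25. The sham group held the 9 libraries F6 to F9 and F26 to F30. All 19 libraries came from mice on the normal diet. The labels name the field only as Mix, and neither its particles nor the age at exposure or at collection of the irradiated mice is given. By the study's sample list the sham mice were 530 days old (F6 to F9) or 640 days old (F26 to F30), so the Mix libraries could be set beside a sham group only by the number in their titles. Titles F1 to F9 are called here the early block (5 Mix, 4 Sham) and titles F21 to F30 the late block (5 Mix, 5 Sham). Whether a block shares an age, a day or a batch is not stated for the irradiated mice. The labels give 1 library per title, and p-values measure the spread between these libraries.

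The right ventricle pumps blood into the lungs through a wall of cardiomyocytes, fibroblasts, vessel cells and resident macrophages. Ionising radiation breaks DNA, and the transcription factor p53 then raises genes such as Cdkn1a, a brake on the cell cycle, Mdm2, which ends the p53 signal, and Bax, which favours cell death. Heart muscle also keeps a circadian clock, in which the activators Bmal1 and Clock drive Per, Cry, Nr1d and Dbp genes that peak at the other end of the day. RNA was measured as read counts per gene in bulk tissue, where fewer cells of a type and less RNA per cell cannot be told apart.

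Total counts per library lay between 12690700 and 22009400. The RNA integrity number (RIN), which falls as RNA breaks down, was 7.24 ± 0.938 (mean ± SD, n = 10) in Mix and 6 ± 1.17 (n = 9) in Sham, a difference of 1.24 (two-sided exact permutation p = 0.0218, and 0.0594 with the near-identical libraries described below counted once). In the early block the difference was 0.56 (exact permutation p = 0.413). In the late block it was 1.72 (exact permutation p = 0.00794, the smallest p that 5 against 5 allows), and the lowest Mix value there, 6.1, lay above the highest Sham value, 6. RIN and field therefore cannot be told apart in the late block. RIN was a covariate in the comparisons below unless stated. Its own association with expression, with field in the model, covered 2426 genes that rose with RIN (21.1% of 11519 tested) and 2214 that fell (19.2%), and 1912 and 1919 with near-identical libraries counted once. Among 171 pairs of libraries, 5 pairs differed by little more than counting noise (mean chi-square per gene 1.69 to 3.30, against 12.4 or more in every other pair): F2 with F5, F6 with F7, F21 with F23, F22 with F24 and F29 with F30. Whether the libraries of a pair came from separate mice is not known. They were kept as 19 libraries, and the counts of calls between Mix and Sham are also given with every such pair counted once, which leaves 7 Mix and 7 Sham. The ventricular markers Myl2, Myl3 and Myh6 and the other members of that list summed to between 42822 and 63171 counts per 1000000 counts of the scaled library total (CPM) in every library. The 13 atrial markers summed to 1227 CPM in F6 and 1261 in F7, to 424 in F2 and 425 in F5, and to between 133 and 279 in the other 15.

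**Figure D1:**
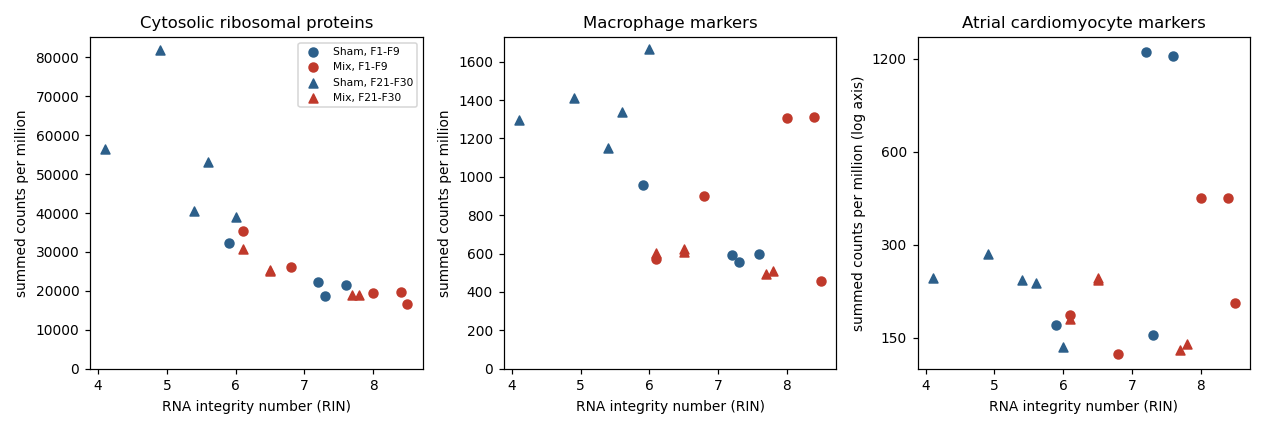
Summed level of the genes of 3 lists in each of the 19 libraries (vertical axis, CPM, on a log axis for the atrial markers) against RIN (horizontal axis), with Mix in red, Sham in blue, circles for the early block and triangles for the late block. Ribosomal protein RNA rises as RIN falls and reaches 81880 CPM in the Sham library F28. Macrophage markers are at 1151 CPM or more in the 5 late Sham libraries and at 626 or less in the 5 late Mix libraries, and atrial markers stand apart in 2 Sham and 2 Mix libraries of the early block.

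With RIN in the model, no gene differed between Mix and Sham at an adjusted p under 0.05 (0% of the 11519 genes tested, edgeR quasi-likelihood test with Benjamini-Hochberg adjustment). An unadjusted p under 0.05 was reached by 879 genes, and DESeq2 on the same model called 42, of which 28 were higher and 14 lower in Mix. Without RIN, edgeR called 457 genes higher (3.97%) and 743 lower (6.45%). Of these 1200, 793 were also associated with RIN, as were 4640 of the 11519 genes tested. All 793 had the sign of their RIN slope, which leaving RIN out of the model itself favours. With near-identical libraries counted once, 0 genes were called with RIN (505 at an unadjusted p under 0.05) and 0 without it (2678). Among the libraries of RIN 5.9 to 7.8, 7 Mix and 5 Sham with a mean RIN of 6.79 and 6.8, 0 genes were called without a covariate and 815 reached an unadjusted p under 0.05. These were F1, F4 and F21 to F25 in Mix and F6 to F9 and F26 in Sham. Field and title block were thus largely confounded in this set, and the fit held no block term.

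**Figure D2:**
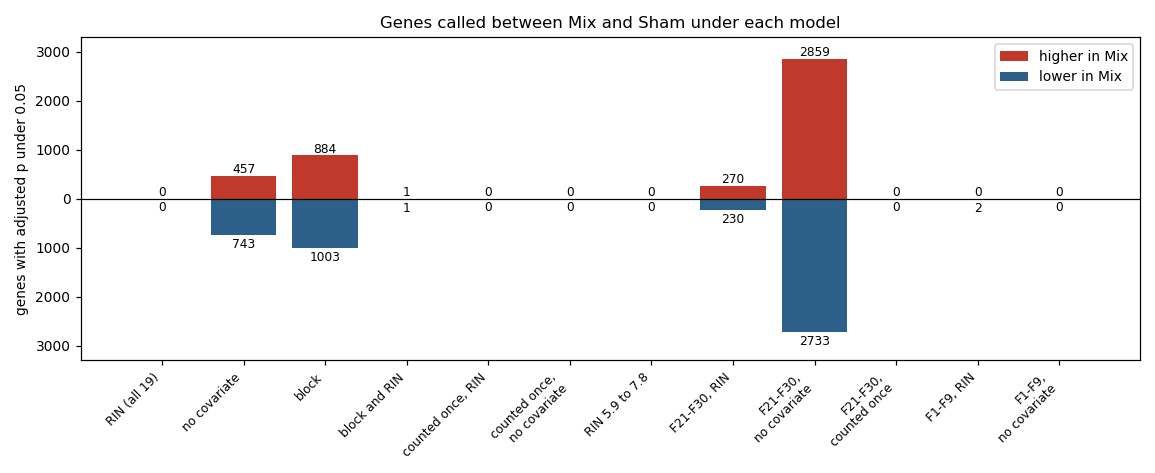
Number of genes with an adjusted p under 0.05 (vertical axis, higher in Mix upward and lower downward) under 12 models of the Mix and Sham libraries. The count is 0 with RIN in all 19 libraries and 1200 without it, and in the late block (F21-F30) it runs from 0 with near-identical libraries counted once to 5592 without RIN.

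Of the genes higher in Mix in both blocks, the 6 of smallest p did not pass the threshold over all genes (adjusted p 0.163 to 0.173, edgeR), though DESeq2 called each of them. Rnf128, a membrane ubiquitin ligase (chrX:138463952-138574139 on the plus strand, GRCm39), had a lowest, median and highest level of 44.7, 50.8 and 61.8 CPM in Mix and of 36.8, 38.8 and 44.2 CPM in Sham. Every Mix library was above every Sham library, and the log2 fold change was 0.37 ± 0.07 (SE; 95% interval 0.21 to 0.53, adjusted p = 0.163, edgeR), with 0.47 in the early and 0.23 in the late block. Ppp1r3a, the muscle subunit that brings a protein phosphatase to glycogen, overlapped slightly, with 88.9 to 126 CPM in Mix and 65.1 to 93.0 CPM in Sham (log2 fold change 0.44 ± 0.10). BC025920, which has no assigned function, Fam161b, a microtubule-binding protein gene, and Erdr1y had log2 fold changes of 0.57 ± 0.12, 0.49 ± 0.11 and 0.67 ± 0.15. Erdr1y is annotated on the Y chromosome and has a near-identical X-linked copy, so its reads in these female libraries cannot be placed with certainty.

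The 6 genes lower in Mix by the same rule had adjusted p-values of 0.128 to 0.163 (edgeR), and DESeq2 called each of them too. Meox2, a homeobox factor of vessel and muscle cells (chr12:37158533-37229533, plus strand), had the smallest p of all genes. Its lowest, median and highest levels were 15.4, 19.2 and 22.5 CPM in Mix and 23.1, 26.5 and 29.2 CPM in Sham, with no overlap, and the log2 fold change was -0.41 ± 0.07 (95% interval -0.55 to -0.26, adjusted p = 0.128, edgeR). Apcdd1, an inhibitor of Wnt signalling at the cell surface, also did not overlap, at 1.91 to 3.47 CPM in Mix and 3.59 to 5.33 CPM in Sham (log2 fold change -0.76 ± 0.14). Chst7, a sulphotransferase of chondroitin, had a log2 fold change of -0.62 ± 0.13, and Pck2, the mitochondrial enzyme that makes phosphoenolpyruvate, had one of -0.33 ± 0.07. Flna, the actin cross-linker filamin A, differed by -0.45 ± 0.09 with RIN in the model and by -0.13 without it (adjusted p = 0.548, edgeR). Dkk3, a secreted Dickkopf family protein and one of the atrial markers listed here, differed by -1.85 ± 0.40, with its highest level, 65.5 CPM, in a Sham library, and by -0.50 without the 4 atrial-rich libraries.

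**Figure D3:**
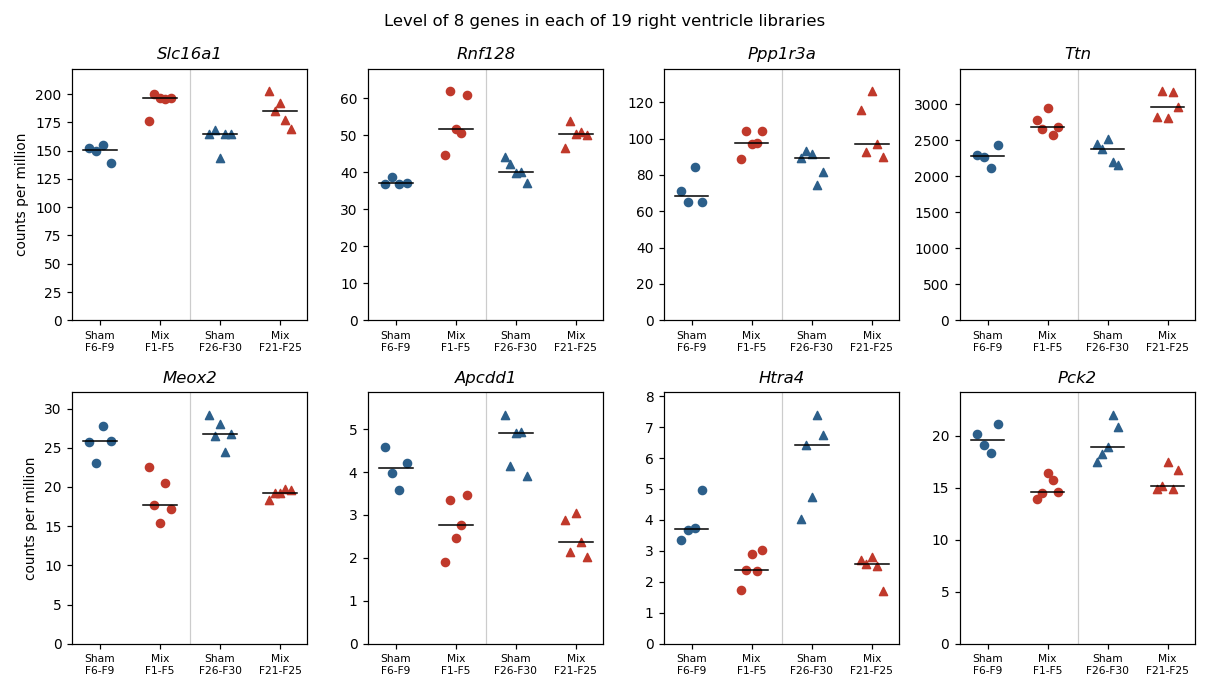
Level of 8 genes in CPM (vertical axes, from 0) in each library, with Sham in blue, Mix in red, circles for the early block, triangles for the late block and a bar at each median. For Slc16a1, Rnf128, Ttn, Meox2, Apcdd1 and Htra4 the 10 Mix libraries lie on one side of all 9 Sham libraries. For Ppp1r3a and Pck2 the ranges touch or overlap.

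Across both blocks, 16 genes were higher in every Mix library than in every Sham library (0.139% of the genes tested) and 5 were lower (0.0434%). This count is a description of genes singled out after their values were seen. The levels behind it are not adjusted for RIN, which was higher in Mix. The lower genes were Meox2, Apcdd1, Cygb, Htra4 and Oscp1. Cygb encodes the oxygen-binding globin of fibroblast-like cells and lay at 92.5 to 110 CPM in Mix and 111 to 143 CPM in Sham. Htra4, a secreted serine protease, lay at 1.69 to 3.02 CPM in Mix and 3.37 to 7.40 CPM in Sham. Among the higher genes, Ttn, the giant spring protein of the sarcomere, had a lowest, median and highest level of 2580, 2818 and 3181 CPM in Mix and 2112, 2299 and 2515 CPM in Sham (log2 fold change 0.29 ± 0.07, adjusted p = 0.215, edgeR). Slc16a1, a transporter of lactate and pyruvate, lay at 169 to 202 CPM against 139 to 168 CPM (0.29 ± 0.07, adjusted p = 0.178, edgeR). Rock2, a kinase that acts on the actin skeleton, lay at 81.4 to 102 CPM against 60.9 to 80.9 CPM, and Kmt2c, a histone methyltransferase, at 29.1 to 37.02 CPM against 16.2 to 27.4 CPM. The others described here were Rnf128 as above and Ckap5, Hipk3, Arfgef2, Ank2, Naa15, Ecpas, Ktn1, Cpeb4, Nlk and Strn. Of these, Ank2 encodes the ankyrin that anchors ion transporters in the cardiomyocyte membrane. None of the 21 genes passed the threshold in edgeR with RIN.

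Across both blocks, radiation response genes showed no difference that passed the test. Of 14 genes listed for p53-driven arrest and feedback, 12 were tested and 0 passed (median log2 fold change 0.08, against -0.01 over all genes). Of 13 for p53-driven cell death, 11 were tested and 0 passed (median -0.08), and of 13 for repair and metabolism, 11 were tested and 0 passed (median 0.07). Cdkn1a lay at 16.1 to 50.9 CPM in Mix and 16.04 to 34.3 CPM in Sham, with a log2 fold change of 0.20 (95% interval -0.38 to 0.77). Its estimate was 0.66 in the early and -0.55 in the late block, and -0.15 without the 4 atrial-rich libraries. Mdm2 had a narrower interval, -0.07 to 0.23 around 0.08. Ccng1, a cyclin that p53 induces, was at 0.19 ± 0.08, and Phlda3, an inhibitor of survival signalling, at -0.29 ± 0.12 (adjusted p = 0.603 and 0.561, edgeR). Bax differed by -0.14 ± 0.12 and Eda2r, a death receptor, by -0.09 ± 0.11. Gdf15, a secreted stress factor, stayed under the count filter at 0.676 to 4.94 CPM in Mix and 0.598 to 4.89 CPM in Sham. Of 25 DNA damage and repair genes tested 0 passed, with a median of -0.04. Within the late block 1 of the 12 arrest and feedback genes rose (2.31% of all genes), Mdm4, an inhibitor of p53 (0.50 ± 0.11, adjusted p = 0.035, edgeR, and 0.299 counted once). The interaction between blocks was positive and past the threshold in 1 of the 12, Mdm4 itself (0.54 ± 0.13, adjusted p = 0.0125, edgeR). Among the 25 DNA damage genes it was so in 1, Parp2, a sensor of DNA breaks (0.46 ± 0.14, adjusted p = 0.0403, edgeR). By that test 7.41% of all genes were higher, and 0 genes passed it counted once.

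Over both blocks, heart failure and matrix genes overlapped between the groups. In the late block alone their summed levels did not overlap. The matrix list summed to 2559 to 2755 CPM in late Mix and 2802 to 3278 CPM in late Sham. The cardiac stress list summed to 28409 to 39538 CPM in late Mix and 22805 to 25736 CPM in late Sham. Both sums overlapped in the early block. Nppb, the B-type natriuretic peptide, ran from 2.37 to 164 CPM in Mix and from 12.8 to 249 CPM in Sham (log2 fold change -0.07 ± 0.74). Its atrial relative Nppa did not pass the filter and was highest in the Sham library F7, at 49.9 CPM. Without any filter edgeR called 15 genes, 13 of them lower in Mix, which included the atrial genes Nppa, Dkk3 and Mybphl and the adipocyte genes Adipoq, Plin1, Cidec and Retn. Adipoq, which encodes adiponectin, was at 3.80 and 3.76 CPM in F6 and F7 and at 1.72 CPM or less elsewhere. Of the 11 adipocyte markers 4 passed the filter and 0 of them differed (median log2 fold change -0.10). The summed level of the 11 was 4692 to 6077 CPM in early Mix and 4264 to 5930 CPM in early Sham. In the late block it was higher in Mix (4823 to 6250 against 3561 to 4040 CPM). Of the 4 markers tested in that block only Lpl, a lipase that heart muscle also makes, had an estimate above 0. The other 3 were below 0 (median of the 4 -0.24), so the sum is not a measure of fat cells alone. The collagen genes Col1a1 and Col3a1 had log2 fold changes of -0.08 ± 0.19 and -0.18 ± 0.27, and both were above 0 without RIN (0.37 and 0.33). Of the 32 matrix genes tested 0 passed, with a median of -0.17. Within the late block 4 of the 32 fell (1.97% of all genes), and 0 did counted once. They were Bgn, the proteoglycan biglycan (-0.78 ± 0.16), Loxl1, a cross-linking oxidase (-0.80 ± 0.17), Postn, the matrix protein periostin (-1.01 ± 0.23), and the growth regulator Ccn2 (-0.64 ± 0.15). The interaction was negative and past the threshold in 4 of the 32, Loxl1, Ccn2, Fbn1 and Col3a1 (7.86% of all genes).

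Ribosomal protein and respiratory chain genes were compared with and without RIN. Of 78 cytosolic ribosomal protein genes, 0 passed with RIN (median log2 fold change -0.10) and 69 fell in Mix without it (median -0.78; 6.45% of all genes fell). Per unit of RIN 77 of the 78 fell, with a median of -0.49 (19.2% of all genes). With RIN in the model, all 78 estimates of the late block were below 0 (median -0.55) and 1 gene fell (1.97% of all genes), while the early block had a median of 0.18, and of -0.03 without RIN, and the interaction between blocks was negative and past the threshold in 48 of the 78 (median -0.69; 7.86% of all genes). Counted once, the late median was -0.30 and 0 of 78 genes passed in that block. Of 78 nuclear-encoded genes of oxidative phosphorylation, 0 passed with RIN (median -0.05), 7 fell without it (median -0.55; 6.45% of all genes) and 68 fell with rising RIN (median -0.34 per unit; 19.2% of all genes). With RIN their late estimates were below 0 in 72 of 78 (median -0.36), and 0 passed. Counted once, the late median was -0.15 and 0 passed. The early estimates were above 0 in 66 of 78 (median 0.12, and -0.03 without RIN). Over both blocks counted once, 61 of 78 were above 0 (median 0.04). The interaction was negative and past the threshold in 7 of 78 (7.86% of all genes), with a median of -0.38.

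Within the early block, 2 genes were called and both were lower in Mix (0.0167% of 11964). Neither was called with near-identical libraries counted once, without RIN, or without the atrial-rich F2, F5, F6 and F7, each of which gave 0 calls in all, whereas DESeq2 called 236. Without the atrial-rich libraries only F1, F3 and F4 of Mix and F8 and F9 of Sham remained. Podn, which encodes the matrix proteoglycan podocan (chr4:107871988-107889534, minus strand), was at 8.97, 17.1, 22.2, 9.51 and 15.6 CPM in Mix F1 to F5 and at 27.3, 26.3, 15.8 and 27.3 CPM in Sham F6 to F9. The groups overlapped, and the log2 fold change of -1.04 ± 0.10 (adjusted p = 0.00722, edgeR) had RIN in the model; without it the estimate was -0.71. Ciart, a repressor in the circadian clock (chr3:95785815-95789991, minus strand), was at 4.36, 2.58, 6.78, 3.33 and 3.53 CPM in Mix and at 15.2, 13.5, 12.1 and 18.8 CPM in Sham. These groups did not overlap, with a log2 fold change of -1.91 ± 0.25 (adjusted p = 0.0497, edgeR).

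Other clock genes of the early block were arranged as Ciart was, without passing the threshold. Of 14 genes of the arm that E-box sites drive, 13 had an estimate below 0 (median -0.76, against 0.00 over all genes), Ciart passed, and 5 did not overlap between the groups, all lower in Mix (1.23% of all genes did so). The lowest estimate of the arm was -1.91 with RIN, -1.83 without it and -1.87 without the atrial-rich libraries. In the last of these fits all 14 estimates were below 0. Dbp, a clock output factor, was at 60.1, 29.2, 82.5, 56.4 and 28.9 CPM in Mix and at 126, 125, 100 and 135 CPM in Sham (-1.23 ± 0.29, adjusted p = 0.151, edgeR). Per3, a period gene, differed by -1.005 ± 0.26 and Per2 by -0.99 ± 0.21. In the opposite arm 5 of 6 estimates were above 0. Bmal1, the activator that peaks when Dbp is low, was at 7.68, 13.6, 5.97, 8.61 and 15.9 CPM in Mix and at 4.16, 3.18, 3.36 and 2.48 CPM in Sham (1.54 ± 0.31, adjusted p = 0.151, edgeR), and its partner Clock differed by 0.41 ± 0.09. The hour of tissue collection is not among the labels, and its part in these values was not tested.

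In the late block the same arm lay on the other side of 0. Its median was 0.33, 12 of 14 estimates were above 0, 4 genes did not overlap, all higher in Mix (16% of all genes did so), and Per3 rose (0.70 ± 0.15, adjusted p = 0.0319, edgeR). Per1 was at 69.3, 132, 66.2, 135 and 108 CPM in Mix F21 to F25 and at 39.6, 42.4, 34.8, 43.8 and 35.8 CPM in Sham F26 to F30 (1.03 ± 0.30). In the early block its estimate was -0.81 ± 0.17. Ciart overlapped in the late block, at 15.4 to 19.6 CPM in Mix and 9.86 to 20.3 CPM in Sham (0.04 ± 0.27). The field by block interaction, which tests the difference between the blocks, was 1.95 ± 0.31 for Ciart and 1.76 ± 0.28 for Per1 (adjusted p = 0.00521 for each, edgeR), 1.51 ± 0.30 for Per3 and 1.22 ± 0.32 for Dbp. It was positive and past the threshold in 9 of the 14 genes of the arm (7.41% of all genes). No gene passed it with near-identical libraries counted once or without the atrial-rich libraries.

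The promoters of 3 clock genes whose field difference changed between the blocks are shown, each of 300 bases from 250 before to 50 after the annotated start (RefSeq, GRCm38.p6, written 5′ to 3′ on the gene's strand). Capitals mark the E-box CACGTG, which reads the same on both strands and which the Bmal1 and Clock pair binds, or the D-box core TTATGTAA, searched on both strands, which Dbp-like factors bind. Ciart at chr3:95882179-95882478 (minus strand) holds 3 E-boxes, Per1 at chr11:69098699-69098998 (plus strand) holds 1, with 0 in its other promoter entry, and Per3 at chr4:151044616-151044915 (minus strand) holds the D-box core and no E-box.
Ciart: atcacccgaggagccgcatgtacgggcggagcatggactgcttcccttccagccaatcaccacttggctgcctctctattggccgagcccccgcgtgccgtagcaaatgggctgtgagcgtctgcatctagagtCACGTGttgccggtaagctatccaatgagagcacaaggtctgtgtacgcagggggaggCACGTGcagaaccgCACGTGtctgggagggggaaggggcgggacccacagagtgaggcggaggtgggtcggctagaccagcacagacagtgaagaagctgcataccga
Per1: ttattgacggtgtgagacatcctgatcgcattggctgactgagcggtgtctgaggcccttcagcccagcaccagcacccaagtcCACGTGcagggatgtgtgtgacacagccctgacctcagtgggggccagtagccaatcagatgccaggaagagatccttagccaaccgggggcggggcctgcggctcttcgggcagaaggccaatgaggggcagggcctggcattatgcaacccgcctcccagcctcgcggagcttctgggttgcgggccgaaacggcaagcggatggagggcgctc
Per3: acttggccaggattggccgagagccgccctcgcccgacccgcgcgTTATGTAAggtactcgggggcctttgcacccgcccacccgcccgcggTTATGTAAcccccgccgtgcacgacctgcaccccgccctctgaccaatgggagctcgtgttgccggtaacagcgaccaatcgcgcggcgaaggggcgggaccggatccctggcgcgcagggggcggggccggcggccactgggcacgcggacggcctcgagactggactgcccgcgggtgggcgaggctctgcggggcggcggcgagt
Of 20 clock genes listed, 17 had an entry, with 22 promoters in all. The E-box occurred in 6 of the 22, in Ciart, Per1, Bhlhe41, Cry1 and Tef, and in 7.15% of the 32851 promoters of the table. The D-box core occurred in Per3 alone of these genes and in 0.938% of all promoters. A match describes the letters of these windows only. Cry1, which holds an E-box, had an early estimate of 0.10 ± 0.16.

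The late block carried the most calls. With RIN, 270 genes were higher in Mix (2.31% of 11689) and 230 lower (1.97%). Without RIN 5592 genes were called. With near-identical libraries counted once 0 were called (1284 at an unadjusted p under 0.05), and without the Sham library F26, the one of highest RIN in its group, 0 were called. DESeq2 called 1157, which included 499 of the 500.

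Macrophage genes were among those that fell in the late block. Of 18 macrophage markers 16 were tested, 10 fell (1.97% of all genes), 0 rose and the median log2 fold change was -1.08, against 0.00 over all genes. In 12 of the 16 every Mix library lay below every Sham library (17.9% of all genes did so). C1qb, a chain of the complement starter C1q (chr4:136606009-136613511, minus strand), was at 60.4, 58.6, 57.5, 60.1 and 71.1 CPM in Mix and at 212, 146, 187, 163 and 168 CPM in Sham (-1.50 ± 0.17, adjusted p = 0.00908, edgeR). C1qc and C1qa, the other chains, fell by 1.38 ± 0.19 and 1.08 ± 0.18 on the log2 scale. Lyz2, the lysozyme of myeloid cells, was at 197, 135, 196, 129 and 162 CPM in Mix and at 570, 370, 472, 429 and 460 CPM in Sham (-1.34 ± 0.23). Cd68, a lysosomal protein of macrophages, fell by 0.95 ± 0.16, Csf1r, their growth factor receptor, by 0.76 ± 0.12, and Fcer1g and Tyrobp, adaptors of their receptors, by 1.67 ± 0.32 and 1.59 ± 0.26. Fcgr3, a receptor for antibodies that is not on the list, fell by 1.20 ± 0.13. Cd163 (0.46 ± 0.28) and Ccr2 (0.28 ± 0.35), which mark resident and monocyte-derived macrophages, did not pass, and without RIN their estimates were below 0 (-0.08 and -0.25). The late Mix library of lowest RIN, F25 at 6.1, held 605 CPM of summed macrophage markers, and the late Sham library of highest RIN, F26 at 6, held 1667 CPM. Per unit of RIN 12 of the 16 markers had an estimate below 0 (median -0.15) and 1 fell (19.2% of all genes), and the part of RIN in the late difference cannot be told apart from the field. Counted once, the late median was -1.05 and 0 of 16 passed.

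Markers of other cell types were counted in the late block in the same way. Of 2 lymphocyte genes tested 1 fell (1.97% of all genes), Ighm, an antibody heavy chain (-0.94 ± 0.22), and of 10 smooth muscle and pericyte genes 2 rose (2.31% of all genes), the contractile Smtn (0.97 ± 0.17) and the channel subunit Abcc9 (0.72 ± 0.15, and 0.29 ± 0.14 without RIN, which did not pass). Of 4 adipocyte genes 1 rose, Lpl, a lipase that heart muscle also makes (0.74 ± 0.15), and the other 3 had estimates below 0. None of Ighm, Smtn, Abcc9 and Lpl passed counted once. Of 17 endothelial genes 0 passed (median -0.03), and of 12 fibroblast genes 0 passed (median -0.14). Summed levels did not overlap between late Mix and late Sham for endothelial markers (2087 to 2561 against 2755 to 3471 CPM), skeletal muscle markers (497 to 529 against 666 to 821 CPM), smooth muscle and pericyte markers (1059 to 1187 against 822 to 999 CPM) and adipocyte markers (4823 to 6250 against 3561 to 4040 CPM). Those of fibroblast and lymphocyte markers overlapped. Their part in the macrophage values was not tested.

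In the early block the same markers were not lower in Mix. All 17 tested had an estimate above 0 (median 0.39) and 0 passed. C1qb was at 59.6, 136, 38.8, 96.3 and 138 CPM in Mix and at 58.0, 57.6, 102 and 58.0 CPM in Sham. The near-identical pair F2 and F5 was the highest, and without the 4 atrial-rich libraries 7 of 17 estimates were above 0 (median -0.07). The interaction was past the threshold and negative in 11 of 16 markers (7.86% of all genes), as for C1qb at -1.94 ± 0.39 (adjusted p = 0.00724, edgeR). The summed level was 1151 to 1667 CPM in late Sham, 494 to 626 CPM in late Mix, 557 to 957 CPM in early Sham and 459 to 1314 CPM in early Mix, where F2 and F5 reached the late Sham range.

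**Figure D4:**
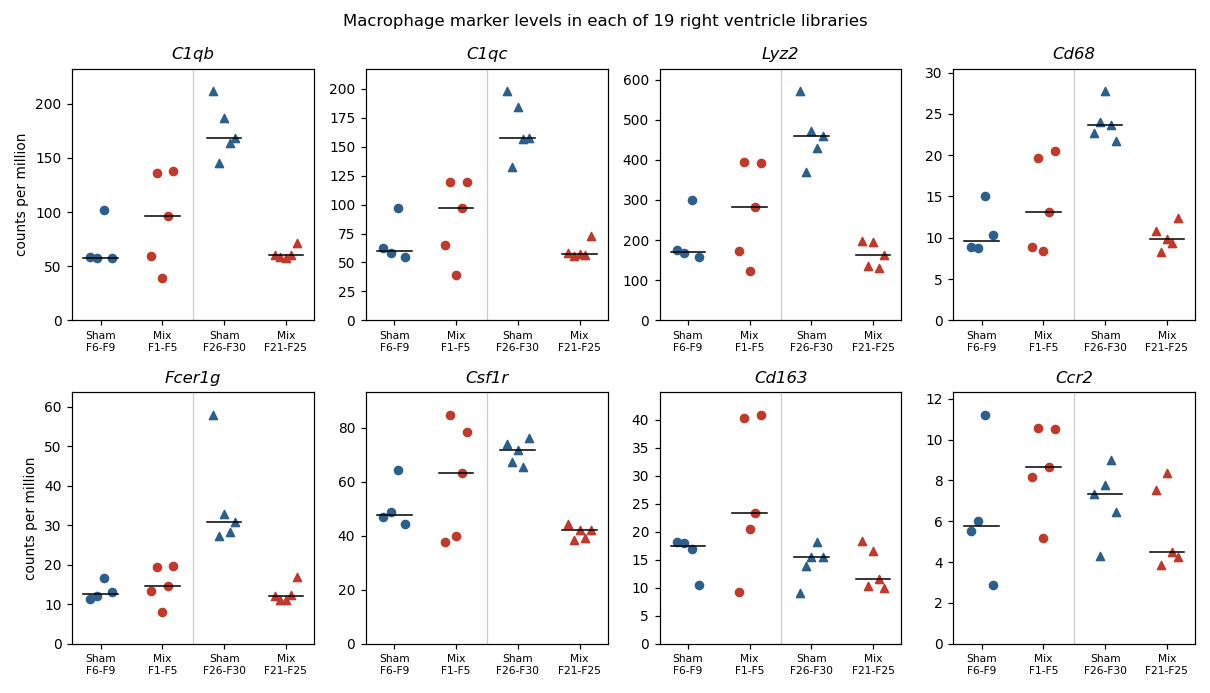
Level of 8 macrophage genes in CPM (vertical axes, from 0) in each library, with Sham in blue, Mix in red, circles for the early block, triangles for the late block and a bar at each median. For C1qb, C1qc, Lyz2, Cd68, Fcer1g and Csf1r the 5 late Sham libraries lie above the 5 late Mix libraries. Cd163 and Ccr2 overlap.

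Other genes that fell in the late block, named by smallest p, were Wfdc17 (-1.63 ± 0.20), a secreted protein of activated macrophages, Prelid1 (-0.94 ± 0.12), a lipid carrier of mitochondria, the membrane-binding Anxa2 (-0.999 ± 0.13), Clic1 (-0.91 ± 0.12), a chloride channel protein, the actin regulator Arpc1b (-0.88 ± 0.12) and Igfbp7 (-0.79 ± 0.11), which is among the secreted factors of senescent cells. Of 14 cell cycle genes tested 2 fell, the replication genes Mcm2 and Mcm5 (median of the list -0.63; 1.97% of all genes fell), and 0 did counted once. Genes that rose were Myh14, a nonmuscle myosin (1.34 ± 0.17), Lgals4, a galectin (1.61 ± 0.21), Pcnt of the centrosome (1.08 ± 0.15), the splicing cyclin Ccnl2 (0.65 ± 0.10), and the unassigned transcripts 9430062P05Rik (1.77 ± 0.22), 8430422M14Rik (1.89 ± 0.26) and Gm49130 (1.37 ± 0.19). Lgals4 lay at 115 to 152 CPM in late Mix, at 39.5 to 67.9 CPM in late Sham and at 108 to 165 CPM in early Sham. Myh7, the slow myosin heavy chain of stressed ventricle, was at 145 to 384 CPM in late Mix and 29.9 to 95.7 CPM in late Sham (1.52 ± 0.47, adjusted p = 0.0815, edgeR), with an early estimate of -1.10 ± 0.42. Xist, the long RNA that silences an X chromosome, lay at 132 to 160 CPM in late Mix and at 49.3 to 84.6 CPM in late Sham, and at 134 CPM or more in every early library of either group.

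Principal components were compared between Mix and Sham. Of 5 components of the 500 most variable genes 0 differed by field after adjustment; the first (55.3% of the variance) had an exact permutation p = 0.0174, adjusted to 0.0869. On all tested genes the first (48.4%, adjusted exact permutation p = 0.0346) and the fifth (3.57%, adjusted p = 0.00108) differed. The near-identical libraries entered this test as separate units. The late Sham libraries, of RIN 4.1 to 6, had the 5 lowest scores on the first, from -59.4 to -21.7, and the next, -9.73, was that of F1, of RIN 6.1. Scores on it had a Pearson correlation of 0.89 with RIN over the 19 libraries, as a description in which near-identical libraries count singly. On the fifth, Mix libraries ran from 1.31 to 7.43 and Sham libraries from -13.4 to 5.55, with F9 and the atrial-rich F6 and F7 the lowest. Its largest negative weights were those of Myl4, the atrial myosin light chain, Dkk3, Myh11, the smooth muscle myosin, and Comp, a cartilage matrix protein, and its largest positive ones those of Cyp2b10, a cytochrome, and the globin gene Hbb-bt.

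The male groups, also on the normal diet, held Mix mice given 50 cGy and Sham mice of 530 or 750 days, so the older Sham ages differ between the sexes. In male mice 0 of 11211 genes differed between 8 Mix and 10 Sham libraries with RIN (1006 at an unadjusted p under 0.05, 20 by DESeq2). Of the genes without overlap in females, 20 were tested in males and 9 had the same sign. Of the 12 genes chosen by smallest p, 11 were tested in males and 7 had the same sign, against 50.6% of all genes tested in both sexes. Ppp1r3a (0.41), Flna (-0.45) and Dkk3 (-3.35) had an unadjusted p under 0.05 in males (2 of the 3 without the library M21), while Meox2 (0.23) had the other sign. Dkk3 is an atrial marker, and all 7 atrial markers tested in males had an estimate below 0 (median -1.16). The male library M21, labelled Mix, differed from each of M12 to M15, labelled sham on a Western diet, by a mean chi-square of 2.13 to 2.64 per gene, and whether its label is right was not tested. The field by sex interaction was past the threshold for 1 gene (0.00912% of 10965), Tspan4, a tetraspanin of cell adhesion and migration, at -1.16 ± 0.21 (adjusted p = 0.0406, edgeR). Tspan4 was at 22.1 to 38.02 CPM in Mix and 33.6 to 64.8 CPM in Sham females (-0.41 ± 0.10) and at 0.49 ± 0.17 in males. The interaction came from a joint fit of both sexes with a shared RIN slope, so it is not the difference between these separate estimates. Without M21 the adjusted p was 0.0700, and with a RIN slope in each sex or counted once 0 genes passed.

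Female mice on the normal diet given gamma rays at 100 cGy formed 8 further libraries, so this comparison differs in dose, 50 cGy for Mix, as well as in field. Against them, Mix was higher in 142 genes (1.23% of 11507) and lower in 38 (0.330%), and with near-identical libraries counted once 0 were called. The genes called included Mtx3, a mitochondrial import protein (0.65 ± 0.09), and, among those lower, Kcnk1, a potassium channel (-0.99 ± 0.18). Gamma against the shared Sham group gave 0 calls (1551 at an unadjusted p under 0.05, 24 by DESeq2), with log2 fold changes of 0.14 for Rnf128 and -0.43 for Meox2, beside 0.37 and -0.41 for Mix. Both comparisons use the same 9 Sham libraries, so nothing is read from these values together.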

How the data were processed

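The authors sequenced poly-A selected RNA of the right ventricle from both ends. They deposited unnormalised read counts, obtained with HTSeq-count on gene models limited to 3′ ends. The submitters' processing notes name FastQC 0.11.9, STAR 2.7.8a and mm39. The strand setting and annotation release are not given in the sources used here. Groups, dose and RIN came from the labels, and sham ages from the study's supplement.

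A gene was tested if every library of a comparison held over 20 counts, in R 4.3.3 with edgeR 4.0.16 (TMM, quasi-likelihood, Benjamini-Hochberg, threshold 0.05). DESeq2 1.42.0 was an alternative, with other filters, scalings, covariates, libraries counted once and libraries left out. CPM used TMM factors and was not adjusted for RIN, and overlap between groups was judged on CPM. Near-identical means a mean chi-square under 5. Symbols and GRCm39 positions came from GENCODE, with 56323 of 56941 identifiers matched. The main test was tried on simulated counts with no effect of RIN or block and no near-identical libraries. That trial cannot show how the calls depend on these. One female library labelled gamma with a dose of 0 cGy was left out.

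Named genes were, in each direction, the 6 of smallest p with 1 sign in both blocks (none passed), 18 fixed genes, up to 4 members of a described list and small call sets; genes of the late block, of the gamma comparison and without overlap were chosen after their values were seen. The members, lists and alternatives were chosen with earlier results of these data known. Some genes counted here are not reported by name.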

Additional observations from a re-analysis of the deposited data

Results flagged for a closer look

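A Sham library stood apart from the other 8 of its group for 4 genes: Nppb in F26 (249 CPM, next 127), Myh7 in F9 (654 CPM, next 194), Col1a1 in F9 (114 CPM, next 71.8) and the Y-linked Ddx3y in F8 (0.149 CPM, next 0.0723). Chance marks about 1 in 20 groups, and these are 4 of 68 groups looked at. No Mix library stood apart.

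The field difference changed between the blocks (interaction in the edgeR model, late minus early, adjusted p 0.00521 to 0.0494) for clock genes: Ciart (1.95), Per1 (1.76), Per3 (1.51), Dbp (1.22), Bhlhe41 (1.18), Per2 (1.02), Nr1d1 (0.91), Tef (0.83), Usp2 (0.57) and Nfil3 (-1.10). It changed for macrophage genes: Adgre1 (-2.53), C1qb (-1.94), Lyz2 (-1.89), C1qc (-1.78), Tyrobp (-1.78), Fcer1g (-1.68), Cd68 (-1.58), F13a1 (-1.58), C1qa (-1.50), Csf1r (-1.07) and Mrc1 (-1.04). It also changed for Myh7 (2.35), Col3a1 (-0.96) and Xist (0.79). No interaction passed the threshold with near-identical libraries counted once (2541 genes at an unadjusted p under 0.05) or without the atrial-rich libraries (2098). The field difference changed between the sexes for Tspan4 (-1.16). The RIN gap of the late block, 1.72 against 0.56 in the early block, moves with these values, and its part in them cannot be told apart from the field.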

How the results depend on the processing

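Library depth left 11519 of 56941 genes above the filter, and rarer transcripts were not compared. The number of genes called between Mix and Sham, 0 with RIN, was 1200 without RIN, 1887 with the title block alone, 2 with the block and RIN (Erdr1y and Tspan4), 1 with a squared RIN term (Meox2), 42 by DESeq2 and 15 without a filter, and stayed at 0 when any 1 library was left out and under the other alternatives. In the early block 2 calls became 0 without RIN, counted once or without atrial-rich libraries (an alternative chosen after seeing the data), 236 by DESeq2, and 0 to 6 with 1 library left out (0 without F4 or F7, 6 without F3). In the late block 500 became 5592 without RIN, 1157 by DESeq2, 0 counted once, and 0 to 1158 with 1 library left out: 0 without F26, 88 to 177 without F21, F22, F23, F24, F29 or F30, and 1158 without F28. The block interaction, 1758 calls, became 3243 without RIN, and 0 counted once or without atrial-rich libraries. The sex interaction, 1 call, became 89 by DESeq2 and 0 counted once, with a RIN slope in each sex or without M21. Mix against gamma, 180 calls, became 17 without RIN, 687 by DESeq2 and 0 counted once. DESeq2 called 20 genes in males and 24 for gamma against Sham. The RIN difference was 1.17 counted once (exact permutation p = 0.0594) and 1.00 to 1.44 with 1 library left out. Of 5 components 2 differed on all genes. Fitting fewer libraries lowers the degrees of freedom; otherwise the cause was not tested.

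Among the 18 fixed genes and the 12 of smallest p, estimates over both blocks that changed sign were Cdkn1a (-0.15 without atrial-rich libraries), Nppb (0.037 with the block alone), Col1a1 (0.37 without RIN, 0.34 with the block alone, 0.30 counted once without RIN), Col3a1 (0.33 without RIN, 0.0029 with the block and RIN, 0.15 with the block alone, 0.24 counted once without RIN), Per2 (0.14 and 0.13 at RIN 5.9 to 7.8 without and with RIN) and Myh7 (-0.0506 on total counts, -0.18 with the block and RIN, -0.0262 with a squared term, -0.0256 counted once, -0.0938 at RIN 5.9 to 7.8, -0.0395 without atrial-rich libraries). With 1 library left out, Myh7 ran from -0.37 to 0.68, Nppb from -0.38 to 0.36, Per2 from -0.12 to 0.16 and Col1a1 from -0.19 to 0.0588. No paired analysis was possible because replicate numbers only count the libraries of a group and tie no mouse of one group to a mouse of the other.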
